A study of Mus musculus with 9 samples.

Results

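Immediate-early and heat shock genes were followed as 1 module of 32 genes through 9 single-cell libraries of gut leukocytes, to see how strongly each library and each cell type carried the transcripts that tissue digestion is known to switch on. The 32 genes were chosen by name, 22 immediate-early and 10 heat shock genes, out of 31053 genes in the count tables, and all of them had UMIs (unique molecular identifiers, 1 for each captured transcript) in every library. In the 31759 cells kept they held 4708123 of 261626563 UMIs, or 1.80%.

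All libraries were made from CD11b+ sorted lamina propria cells of male C57BL/6 mice of 7 to 8 weeks of age. Wild-type mice kept under specific pathogen free (SPF) conditions gave 2 colon libraries, germ-free (GF) wild-type mice gave 2 colon libraries, and normal wild-type mice gave 2 libraries from the small intestine. The other groups had 1 library each: wild-type mice given 2.5% dextran sodium sulfate (DSS) in drinking water for 7 days and then plain water, which injures the colonic epithelium, mice labelled Nlrc4 deficient and given the same DSS, and SPF mice given ampicillin (1 g/L), vancomycin (0.5 g/L), neomycin (1 g/L) and metronidazole (1 g/L) in drinking water for 1 week, and in some cases longer. The study describes pooled mice for single-cell libraries. The labels do not say whether the 2 libraries of a group came from separate mice. The p-values of comparisons between groups therefore measure the spread between libraries, which may be technical. Those of comparisons between classes, with the library as a block, measure how far class differences vary from library to library. Neither is known to measure the spread between mice.

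Immediate-early genes are transcribed within minutes of a signal, because the factors that start them are already present in the cell, and many of their products are transcription factors or brakes on the same signal. Heat shock genes encode chaperones that hold and refold proteins, and their inducible members are driven by heat shock factor 1 when unfolded proteins build up. Enzyme digestion at body temperature, washing and sorting are known to induce both sets in isolated cells, and gut myeloid cells also use many of the same genes when they sense microbes.

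The promoters were searched for motifs of factors known to start genes of these kinds, and 26 of the 32 members were found in the RefSeq promoter table of build GRCm38.p6, all on the strand of the gene and 5′ to 3′. Both strands of the 250 bases before each listed start site were searched. A gene counted if any of its start sites had a match, so genes with more start sites had more chances. A heat shock element written as TTCNNGAA or GAANNTTC was present in 6 of 7 heat shock members (85.7%). It was present in 2 of 19 immediate-early members (10.5%) and in 14.5% of all 27025 genes of the table. The heat shock members Hspa8, Hsp90aa1 and Hsp90ab1 were among those not found in it. The CRE (TGACGTCA), bound by cAMP-responsive factors, was present in Dusp1 and Btg2 and in 1.77% of all genes, and the CArG box of serum response factor in Egr2 and Zfp36 and in 1.62% of all genes. The kappaB motif was present in 5 immediate-early members, in 4 heat shock members (Hspa1a, Hspa1b, Hspe1 and Hspd1) and in 8.23% of all genes. The AP-1 motif TGANTCA was in none of the 26 members and in 7.82% of all genes. The stretches below are shown because their genes carry the results that follow, with the matched motif in capitals: the heat shock element in Hspa1a (chr17:34972157-34972296, minus strand) and Hsph1 (chr5:149636337-149636476, minus strand), the CArG box in Zfp36 (chr7:28379229-28379368, minus strand), the kappaB motif in Nfkbia (chr12:55492648-55492787, minus strand) and the CRE in Dusp1 (chr17:26508588-26508722, minus strand).
Hspa1a: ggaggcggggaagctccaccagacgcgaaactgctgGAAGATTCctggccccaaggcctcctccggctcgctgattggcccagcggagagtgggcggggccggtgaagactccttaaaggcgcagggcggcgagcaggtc
Hsph1: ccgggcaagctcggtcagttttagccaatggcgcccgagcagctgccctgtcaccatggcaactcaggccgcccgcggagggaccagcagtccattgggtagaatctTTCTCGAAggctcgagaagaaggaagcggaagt
Zfp36: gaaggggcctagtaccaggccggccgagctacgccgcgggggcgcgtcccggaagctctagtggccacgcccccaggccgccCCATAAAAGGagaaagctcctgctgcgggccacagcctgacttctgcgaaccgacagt
Nfkbia: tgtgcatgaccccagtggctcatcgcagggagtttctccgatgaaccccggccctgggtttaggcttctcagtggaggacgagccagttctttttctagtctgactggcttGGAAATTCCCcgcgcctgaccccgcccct
Dusp1: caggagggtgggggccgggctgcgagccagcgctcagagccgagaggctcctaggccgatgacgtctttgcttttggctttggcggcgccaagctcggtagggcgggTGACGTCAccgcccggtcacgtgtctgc
A match is a stretch of letters and was not tested as a binding site. Hspa1b (chr17:34959239-34959378, minus strand) has a near copy of the Hspa1a promoter, with 247 of 250 bases identical. Their heat shock element and kappaB matches are therefore not independent. The transcripts of these 2 genes are 85.5% identical and their last 300 bases 52.8%, so reads from the shared part may have been split or lost between them.

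The libraries held 13243317 to 64453601 UMIs, 1450 to 6698 kept cells and a median of 3342 to 12322.5 UMIs per kept cell. No 2 libraries shared more than 0.738% of their cell barcodes, counted against the smaller library. Sharing was uneven. It was 0.738% between SPF library 2 and GF library 2, and the antibiotics library shared 0.582% and 0.466% with these 2. The wild-type DSS library shared 0.502% with SPF library 1 and 0.480% with GF library 1. The 2 SPF libraries shared 0.111%, and SPF library 2 shared 0% with GF library 1. Whether this grouping bears on the members' levels was not tested. Cells were gated into classes by marker genes, none of which is a member of the module, and each class is named "-like" from those markers alone. Against the CD11b+ label, the kept cells included 4585 B cell-like, 3172 plasma cell-like, 2486 T cell-like, 1100 epithelial-like and 941 fibroblast-like cells, besides 3762 monocyte-like, 3305 resident macrophage-like, 2895 cDC2-like (type 2 conventional dendritic cells) and 2114 neutrophil-like cells. Small intestine library 1 held 1970 of the plasma cell-like cells. Of 305 eosinophil-like cells, 253 had only the minimum of 2 detected markers, so values of that class describe a gate more than a cell type. Nlrc4 itself stood at 19.9 CPM (a gene's UMIs scaled to the same total in every sample) in the library labelled Nlrc4 deficient and at 10.8 CPM in the wild-type DSS library. These 3′ counts do not show whether the deleted part is transcribed, so the label is not checked by them.

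The immediate-early members took their largest share of UMIs in neutrophil-like cells, the short-lived granulocytes of the gate, and the heat shock members their smallest share among the leukocyte classes other than plasma cell-like cells. The immediate-early share in neutrophil-like cells was 3.07% ± 0.525 (SD, n = 9 libraries), from 2.17% to 4.00%. It was 2.10% ± 0.697 (n = 9) in innate lymphoid-like, 2.09% ± 0.284 (n = 9) in monocyte-like, 2.01% ± 0.356 (n = 6) in eosinophil-like and 1.97% ± 0.602 (n = 9) in resident macrophage-like cells. The ranges of these 4 classes overlapped one another and that of neutrophil-like cells, with values up to 3.33% in macrophage-like and 3.27% in innate lymphoid-like cells. B cell-like cells (1.03% ± 0.190, n = 9) and plasma cell-like cells (0.663% ± 0.175, n = 8) had lower means, and the highest B cell-like value (1.24%) lay below the lowest neutrophil-like value. The place of plasma cell-like cells depended on the denominator: with immunoglobulin, ribosomal and mitochondrial genes out, their immediate-early share was 1.68%, above B cell-like (1.51%) and cDC1-like cells (1.47%), and neutrophil-like cells had 3.43%. The median depth in the middle library was 1732 UMIs per cell in neutrophil-like and 4686 in resident macrophage-like cells. With every cell thinned to 1000 UMIs the share was 3.42% in neutrophil-like and 2.18% in macrophage-like cells. Thinning gives cells equal weight but leaves the expected share of each cell unchanged, so it does not test for an effect of depth.

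The heat shock share followed another order. It was highest in innate lymphoid-like (0.813% ± 0.213, n = 9), T cell-like (0.698% ± 0.0743, n = 9) and cDC1-like cells (0.660% ± 0.160, n = 9), which overlapped. It was 0.599% ± 0.160 (n = 9) in resident macrophage-like cells, 0.307% ± 0.0663 (n = 9) in neutrophil-like cells and 0.239% ± 0.0447 (n = 8) in plasma cell-like cells. With immunoglobulin, ribosomal and mitochondrial genes out, plasma cell-like cells had 0.601%, beside 0.619% in mature DC-like and 0.629% in monocyte-like cells, and neutrophil-like cells were lowest at 0.344%. In shares of all UMIs, no neutrophil-like value (highest 0.443%) reached the lowest T cell-like value (0.601%).

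**Figure D1:**
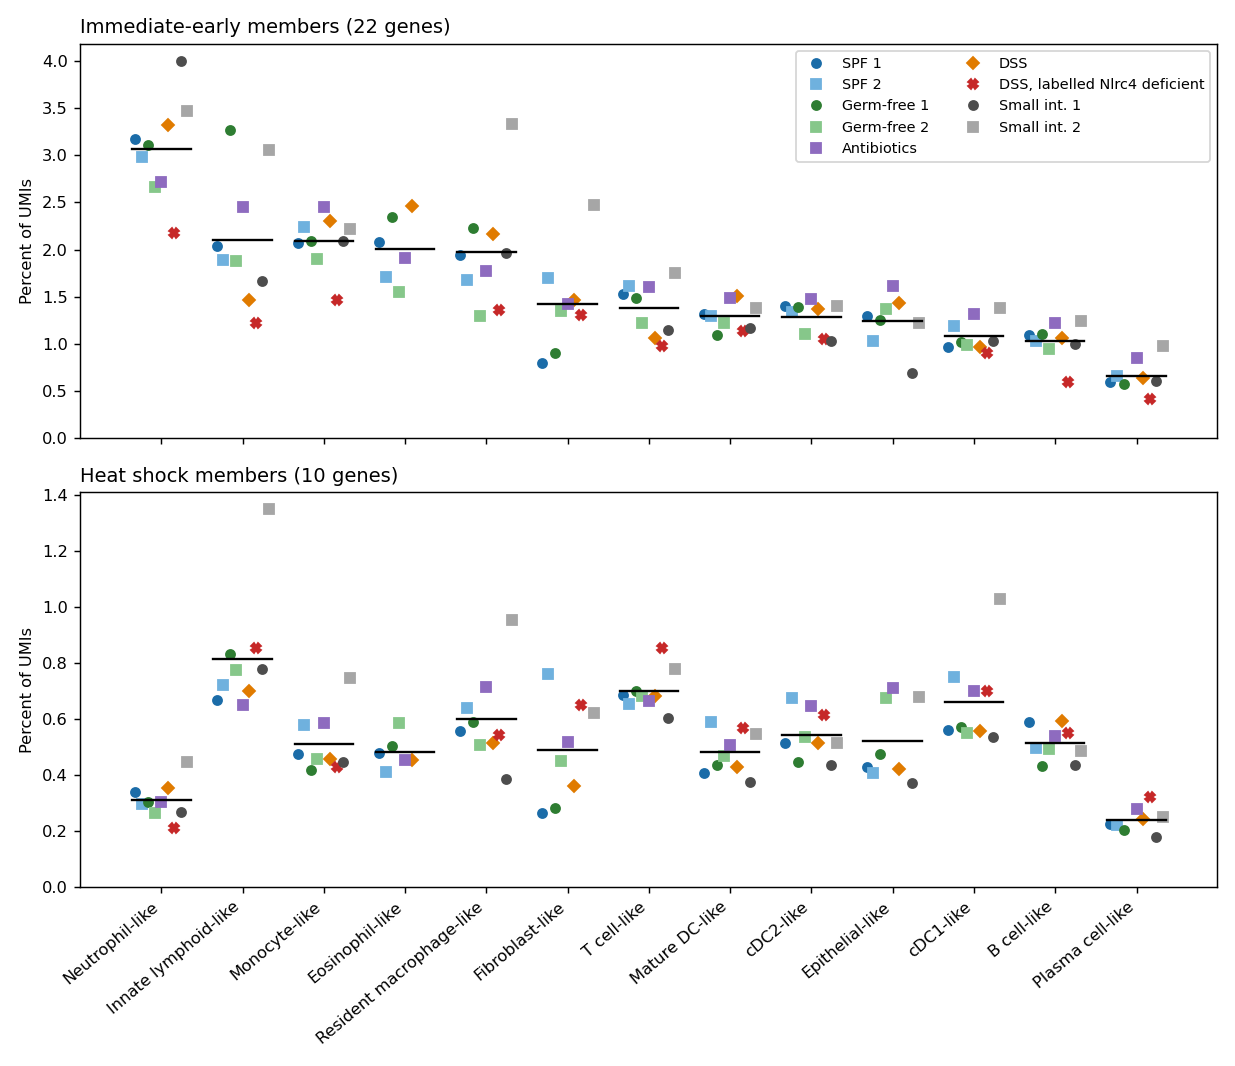
Share of UMIs, in percent, held by the 22 immediate-early members and by the 10 heat shock members in each marker-gated class, with 1 point per library with at least 20 cells of the class and a bar at their mean. The neutrophil-like mean is highest in the immediate-early panel (3.07%), though its points overlap those of other classes, and low in the heat shock panel (0.307%).

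Single cells of 1 class spread widely. Over the 9 libraries, the median resident macrophage-like cell with at least 1000 UMIs held between 1.3% and 3.34% immediate-early UMIs, the tenth percentile ran from 0.18% to 1.78% and the ninetieth from 2.30% to 6.60%. Cells without any immediate-early UMI at that depth were at most 6 in any library of this class.

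Each of 7 classes was compared with the mean of the other classes over all 9 libraries, with the library as a block, by edgeR's quasi-likelihood test over 12049 genes with Benjamini-Hochberg adjustment. The marker gate makes the classes different in many genes, so the members' counts stand beside the share of all genes called. In neutrophil-like cells 23 of 32 members were higher and 6 lower, where 50.8% of all genes were called, 27.4% higher and 23.4% lower. All 22 immediate-early members were among the higher ones, with a median log2 difference of 1.52, and 6 of the 10 heat shock members were lower, with a median of -0.84, against a median of -0.09 over all genes. With DESeq2 and its size factors 20 members were higher and 7 lower, with 22.1% of all genes higher and 34.0% lower, and 19 immediate-early members were called. Without TMM factors the members split the same way, with 22% and 33.4% of all genes. These scalings moved the median of all genes, to -0.22 and -0.33 here and to between -0.27 and -0.09 with DESeq2 in the other 6 classes.

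In monocyte-like cells 15 members were higher and 7 lower (25.8% and 18.7% of all genes, 44.5% in all), of which 14 higher and 2 lower ones were immediate-early genes. In resident macrophage-like cells 19 were higher and 5 lower (27.9% and 17% of all genes, 45% in all), and 4 of the higher ones were heat shock genes. With DESeq2, all genes split into 21.2% higher and 36.4% lower in monocyte-like cells, with 15 members higher and 10 lower, and into 25.2% and 26.3% in macrophage-like cells, with 18 higher and 7 lower.

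In B cell-like and T cell-like cells more immediate-early members were lower than higher. Innate lymphoid-like cells were not tested, and their mean immediate-early share (2.10%) lay above those of both classes. B cell-like cells had 9 members higher and 18 lower (34.7% and 23.3% of all genes, 58.1% in all), with 14 of 22 immediate-early members lower. T cell-like cells had 14 higher and 10 lower (33.3% and 19.6%, 52.9% in all), with 6 immediate-early members higher and 10 lower, and with 8 of 10 heat shock members higher and none lower. cDC2-like cells had 10 higher and 5 lower (30.1% and 16.5%, 46.6% in all). With DESeq2 the members split into 8 and 21 in B cell-like, 13 and 13 in T cell-like and 9 and 9 in cDC2-like cells, and all genes into 30.2% and 37.5%, 27.1% and 33.3%, and 21.8% and 39.0%. The eosinophil gate had 6 members higher and 15 lower (9.15% and 14%, 23.1% in all), where the median of all genes lay at -0.76. Without TMM factors its members split into 9 higher and 9 lower (14.1% and 5.24% of all genes), and with DESeq2 into 6 and 15 (11% and 9.77%). T cell-like cells without TMM factors had 15 higher and 8 lower (41.7% and 14.9%), and cDC2-like cells 10 and 5 (24.3% and 21.4%).

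**Figure D2:**
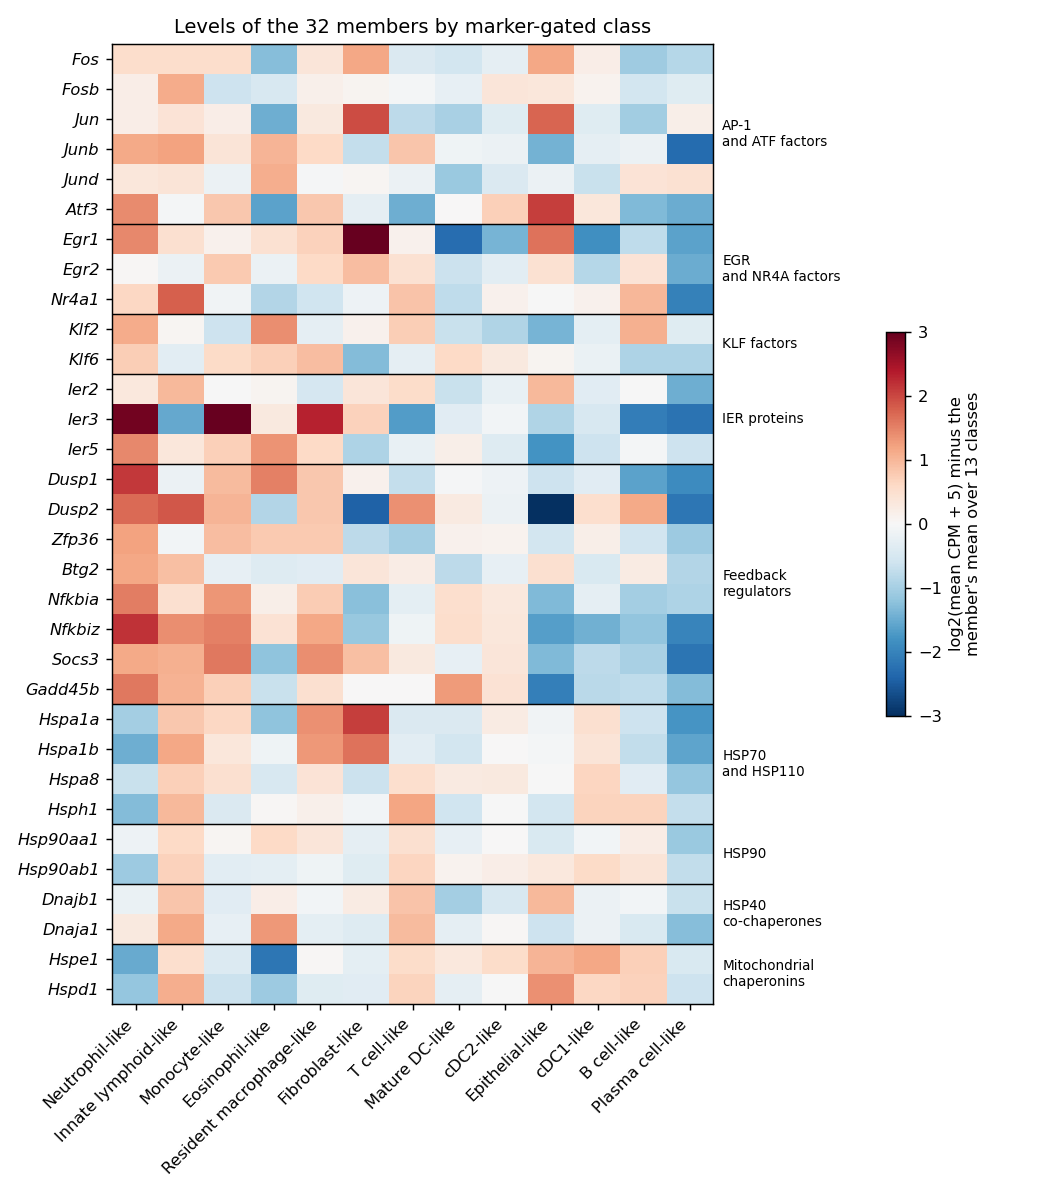
Mean level of each member in each class relative to the member's mean over classes, on the log2(CPM + 5) scale, in red above and blue below, with the colour scale clipped at 3 in either direction and members ordered by role. Ier3, Dusp1 and Nfkbiz are red in neutrophil-like, monocyte-like and macrophage-like cells, while Hspe1 and Hspd1 are blue in neutrophil-like cells and the eosinophil gate.

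AP-1 is a dimer of a FOS and a JUN protein, and Atf3 encodes a stress-induced partner that mostly represses. Junb, the member with the most UMIs (11.7% of the module), ran from 2096 to 8008 CPM with a median of 5721 in neutrophil-like cells, and from 828 to 3055 CPM with a median of 2358 in B cell-like cells. The 2 ranges overlapped only through the library labelled Nlrc4 deficient, which held the lowest value in both classes. Junb was higher in neutrophil-like cells by 1.42 ± 0.09 (log2 difference ± SE, edgeR adjusted p = 1.6e-26), in T cell-like cells by 0.77 ± 0.10 and in macrophage-like cells by 0.63 ± 0.10, and lower in B cell-like cells (-0.34 ± 0.11). Innate lymphoid-like cells, which were not tested, had a mean of 5592 CPM, beside 5360 CPM in neutrophil-like cells.

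Fos ranged from 271 to 1537 CPM (median 1033) in neutrophil-like cells, from 398 to 1336 (median 863) in macrophage-like cells and from 73.5 to 451 (median 332) in B cell-like cells. Its log2 differences were 0.74 ± 0.15 in neutrophil-like and -1.35 ± 0.18 in B cell-like cells. Epithelial-like and fibroblast-like cells, which were not tested, had the highest class means of Fos (1509 and 1490 CPM). Atf3 had the wider contrast, with 314 to 874 CPM in neutrophil-like cells and 34.9 to 131 CPM in T cell-like cells, ranges that did not overlap. It was higher in neutrophil-like (1.81 ± 0.13), monocyte-like (0.93 ± 0.14), cDC2-like (0.93 ± 0.14) and macrophage-like cells (0.89 ± 0.14), and lower in T cell-like (-1.76 ± 0.18) and B cell-like cells (-1.58 ± 0.18). The highest class mean of Atf3 was in the untested epithelial-like cells (941 CPM, against 594 CPM in neutrophil-like cells).

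Jun and Fosb moved less. Jun was higher in neutrophil-like cells by 0.47 ± 0.14 and Fosb by 0.36 ± 0.12, and both of these calls were lost with DESeq2, without TMM factors, without the library block and with the stricter cell filter. That of Jun was also lost without the library labelled Nlrc4 deficient (0.35). Fosb was lower in monocyte-like cells (-0.71 ± 0.13) and higher in cDC2-like cells (0.55 ± 0.12). Among classes that were not tested, fibroblast-like and epithelial-like cells had the highest class means of Jun (1462 and 1248 CPM). Innate lymphoid-like cells, also not tested, had the highest of Fosb (1258 CPM). Jund, a JUN protein that resting cells already make, was higher in neutrophil-like (0.58 ± 0.09) and B cell-like cells (0.31 ± 0.10).

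EGR proteins are zinc finger factors started by MAP kinase signals, and Nr4a1 is an orphan nuclear receptor that antigen receptor signals induce in lymphocytes. Egr1 ran from 458 to 1238 CPM (median 868) in neutrophil-like cells and from 43.5 to 235 CPM (median 81.7) in cDC2-like cells, without overlap. The log2 differences were 1.91 ± 0.16 and -1.49 ± 0.21, and Egr1 was also higher in macrophage-like cells (0.71 ± 0.17). Its highest class means were in fibroblast-like (2426 CPM) and epithelial-like cells (950 CPM), which were not tested. Nr4a1 had its highest levels in innate lymphoid-like (median 1162 CPM), B cell-like (median 785 CPM) and T cell-like cells (median 689 CPM). It was called higher in neutrophil-like (0.92 ± 0.13), B cell-like (0.91 ± 0.13) and T cell-like cells (0.81 ± 0.13) and lower in macrophage-like cells (-0.63 ± 0.15). Egr2 was sparse, with no class median above 44 CPM.

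KLF factors are zinc finger regulators, of which Klf2 keeps lymphocytes and endothelium quiescent and Klf6 is induced by injury. Klf6 ran from 1599 to 3989 CPM in macrophage-like cells and from 422 to 803 CPM in B cell-like cells, without overlap, with log2 differences of 1.05 ± 0.11 and -1.15 ± 0.13. Klf2 was higher in neutrophil-like (1.48 ± 0.15), B cell-like (1.01 ± 0.15) and T cell-like cells (0.63 ± 0.15) and lower in cDC2-like (-0.92 ± 0.17) and monocyte-like cells (-0.68 ± 0.18).

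Of the IER proteins, Ier3 is a regulator of cell survival and had the largest log2 differences of the members called. It ran from 872 to 2148 CPM (median 1398) in monocyte-like cells, from 549 to 2095 CPM (median 1112) in neutrophil-like cells and from 514 to 1447 CPM (median 693) in macrophage-like cells. In B cell-like cells it ran from 12.8 to 67.7 CPM (median 25.3) and in T cell-like cells from 14.0 to 150.3 CPM (median 27.1). No myeloid value of these 3 classes came down to the highest lymphocyte value. The log2 differences were 3.59 ± 0.12 (edgeR adjusted p = 3.0e-48) in monocyte-like, 3.50 ± 0.13 in neutrophil-like, 2.69 ± 0.13 in macrophage-like, -2.11 ± 0.20 in T cell-like and -2.61 ± 0.22 in B cell-like cells. Ier5 was higher in neutrophil-like (1.79 ± 0.09), monocyte-like (0.79 ± 0.10) and macrophage-like cells (0.66 ± 0.10), and Ier2 was higher in neutrophil-like (0.55 ± 0.10) and T cell-like cells (0.50 ± 0.09) but lower in macrophage-like cells (-0.53 ± 0.10).

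The feedback regulators switch the same signals off. Dusp1 encodes a phosphatase that inactivates p38 and JNK, and it ran from 1989 to 5300 CPM (median 4541) in neutrophil-like cells, from 797 to 2959 CPM (median 1596) in macrophage-like cells and from 116 to 425 CPM (median 347) in B cell-like cells. These 3 ranges overlapped only between neutrophil-like and macrophage-like cells, and the lowest value of each came from the library labelled Nlrc4 deficient. The log2 differences were 2.55 ± 0.09 in neutrophil-like, 1.08 ± 0.11 in monocyte-like, 0.93 ± 0.11 in macrophage-like and -1.88 ± 0.14 in B cell-like cells. Its relative Dusp2, a nuclear phosphatase, was higher in neutrophil-like (2.13 ± 0.15), T cell-like (1.45 ± 0.15), B cell-like (1.22 ± 0.15) and monocyte-like cells (1.21 ± 0.16).

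Nfkbia encodes the inhibitor IκBα, and Nfkbiz encodes the nuclear cofactor IκBζ. Nfkbia ran from 2344 to 4820 CPM (median 3393) in neutrophil-like cells and from 2163 to 3875 CPM (median 2923) in monocyte-like cells, and from 458 to 705 CPM (median 615) in B cell-like cells. Its log2 differences were 1.92 ± 0.11, 1.48 ± 0.11 and -1.24 ± 0.14, and those of Nfkbiz in the same classes were 2.67 ± 0.12, 1.73 ± 0.13 and -1.42 ± 0.17. Socs3, a brake on cytokine receptors, was higher in monocyte-like (1.84 ± 0.13), macrophage-like (1.62 ± 0.13) and neutrophil-like cells (1.60 ± 0.15). Zfp36, which directs the decay of cytokine mRNAs, Gadd45b, a stress-induced regulator of MAP kinases, and Btg2, an antiproliferative factor, were higher in neutrophil-like cells by 1.56 ± 0.11, 1.95 ± 0.12 and 1.42 ± 0.12.

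Among the heat shock members, Hspa1a and Hspa1b encode the stress-inducible HSP70, and among the 7 classes tested resident macrophage-like cells were the single one in which they were called higher. Fibroblast-like cells, which were not tested, had a higher median of Hspa1a (823 CPM). Hspa1a ran from 114 to 1607 CPM (median 372) in macrophage-like cells, from 60.4 to 1051 CPM (median 134) in monocyte-like cells and from 34.2 to 225 CPM (median 74.7) in neutrophil-like cells. All 3 ranges overlapped over libraries, while the test compares classes within each library. Hspa1a was higher in macrophage-like cells by 1.68 ± 0.23 (edgeR adjusted p = 3.6e-10) and Hspa1b by 1.47 ± 0.22 (adjusted p = 5.9e-09). Leaving out each library in turn kept both calls, with log2 differences of 1.43 to 1.85 for Hspa1a.

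The constitutive HSP70 Hspa8 behaved differently, with 1255 to 2204 CPM in macrophage-like cells and 453 to 1385 CPM in neutrophil-like cells. It was higher in monocyte-like (0.57 ± 0.08), macrophage-like (0.49 ± 0.08), cDC2-like (0.45 ± 0.08) and T cell-like cells (0.38 ± 0.08), and lower in B cell-like (-0.51 ± 0.09) and neutrophil-like cells (-0.55 ± 0.09). Hsph1, the HSP110 that exchanges nucleotides on HSP70, ran from 67.1 to 161 CPM in T cell-like cells and from 5.31 to 30.9 CPM in neutrophil-like cells, without overlap, with log2 differences of 1.3 ± 0.15 and -1.44 ± 0.26.

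HSP90 holds kinases and receptors near their active form. Hsp90ab1, its constitutive form, ran from 1811 to 2664 CPM in T cell-like cells and from 394 to 1006 CPM in neutrophil-like cells, without overlap, with log2 differences of 0.54 ± 0.08 and -1.02 ± 0.09. Hsp90aa1, the inducible form, was higher in macrophage-like (0.44 ± 0.09) and T cell-like cells (0.38 ± 0.09) and did not pass the test in neutrophil-like cells (0.04 ± 0.10). Of the HSP40 co-chaperones, which bring clients to HSP70, Dnaja1 and Dnajb1 were higher in T cell-like cells by 0.90 ± 0.08 and 0.81 ± 0.11, and Dnaja1 was the single heat shock member higher in neutrophil-like cells (0.51 ± 0.09).

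The mitochondrial chaperonins Hspd1 (HSP60) and Hspe1 (HSP10), which form 1 folding chamber, went together. Hspe1 ran from 26.2 to 209 CPM (median 51.3) in neutrophil-like cells and from 257 to 382 CPM (median 305) in cDC2-like cells, without overlap. Hspe1 and Hspd1 were lower in neutrophil-like cells (-1.61 ± 0.14 and -1.08 ± 0.15) and in monocyte-like cells (-0.40 ± 0.12 and -0.75 ± 0.13), and higher in B cell-like (0.65 ± 0.10 and 0.64 ± 0.10) and T cell-like cells (0.42 ± 0.10 and 0.62 ± 0.10).

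Resident macrophage-like cells were also set against monocyte-like cells, the 2 ends of the path from blood monocyte to gut macrophage. Here 4 members were higher and 3 lower, where 21.7% of all genes were called, 12.6% higher and 9.18% lower. In this fit the members' shares in both directions were near those of all genes. The higher members were Hspa1b (1.22 ± 0.34, edgeR adjusted p = 0.0038), Hspa1a (1.04 ± 0.35, adjusted p = 0.021), Fosb (0.83 ± 0.17) and Hspe1 (0.45 ± 0.15), and the lower ones were Ier3 (-0.84 ± 0.21), Nfkbia (-0.56 ± 0.17) and Ier2 (-0.50 ± 0.13). This count depended on the fit. DESeq2 called 11 members higher and 3 lower, with 16.2% and 7.31% of all genes, and 2 members were called without the library block. Without GF colon library 1 the difference of Hspa1a was 0.77 and no longer passed (adjusted p = 0.13).

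Lists of related genes outside the module gave the surroundings of these counts. Of all genes, 27.4% were called higher and 23.4% lower in neutrophil-like, 25.8% and 18.7% in monocyte-like and 27.9% and 17% in macrophage-like cells. In B cell-like cells these shares were 34.7% and 23.3%, and in T cell-like cells 33.3% and 19.6%. Of 30 other immediate-early genes, 25 were higher and 4 lower in neutrophil-like cells, led by the growth arrest gene Gadd45a (3.81) and the granulocyte factor Cebpb (3.75), with Myc (-1.48) lowest. In monocyte-like cells 18 were higher and 5 lower, with Cebpb (2.30) and the kinase gene Plk2 (2.19) highest, and in macrophage-like cells 16 were higher and 3 lower, with Cebpb (1.72) and Maff (1.67) highest. Cebpb and Cebpd are also myeloid differentiation factors. In B cell-like cells 8 were higher and 19 lower, with Egr3 (3.40) and the phosphatase gene Dusp4 (2.41) at the top. In T cell-like cells 12 were higher and 11 lower.

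Of 23 other cytosolic heat shock genes, 5 were higher and 9 lower in neutrophil-like cells, with the HSP110 relative Hspa4l (1.59) among the higher and Hspb1 and Chordc1 lowest, and 6 were higher and 5 lower in macrophage-like cells, led by the HSP70 cofactor Bag3 (1.2). In T cell-like cells 10 were higher and 4 lower, with Hspa4l (1.21) highest. Of 15 endoplasmic reticulum chaperones, 3 were higher and 11 lower in neutrophil-like cells and 8 higher and 1 lower in macrophage-like cells. Of 7 other mitochondrial chaperones, none was higher and 5 were lower in neutrophil-like cells. The shares of all genes were 27.4% higher and 23.4% lower in neutrophil-like and 33.3% and 19.6% in T cell-like cells. In macrophage-like cells they were 27.9% and 17%, and the counts of other cytosolic heat shock genes there lay near them.

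The libraries differed in the summed module. Over all kept cells the immediate-early share was 1.39% and 1.44% in the SPF libraries, 1.34% and 1.27% in the GF libraries, 1.71% with DSS, 1.19% in the library labelled Nlrc4 deficient, 1.62% with antibiotics, and 0.800% and 1.65% in the small intestine libraries. Small intestine library 1, with its plasma cell-like cells, was lowest. When the 9 classes present in every library were weighted equally, this library had 1.68%, close to the SPF libraries (1.73% and 1.70%). The lowest library by this measure was the one labelled Nlrc4 deficient (1.21%) and the highest was small intestine library 2 (2.14%), with the others between 1.47% and 1.86%. The heat shock share, weighted equally, was 0.472% to 0.598% in 8 libraries and 0.760% in small intestine library 2.

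**Figure D3:**
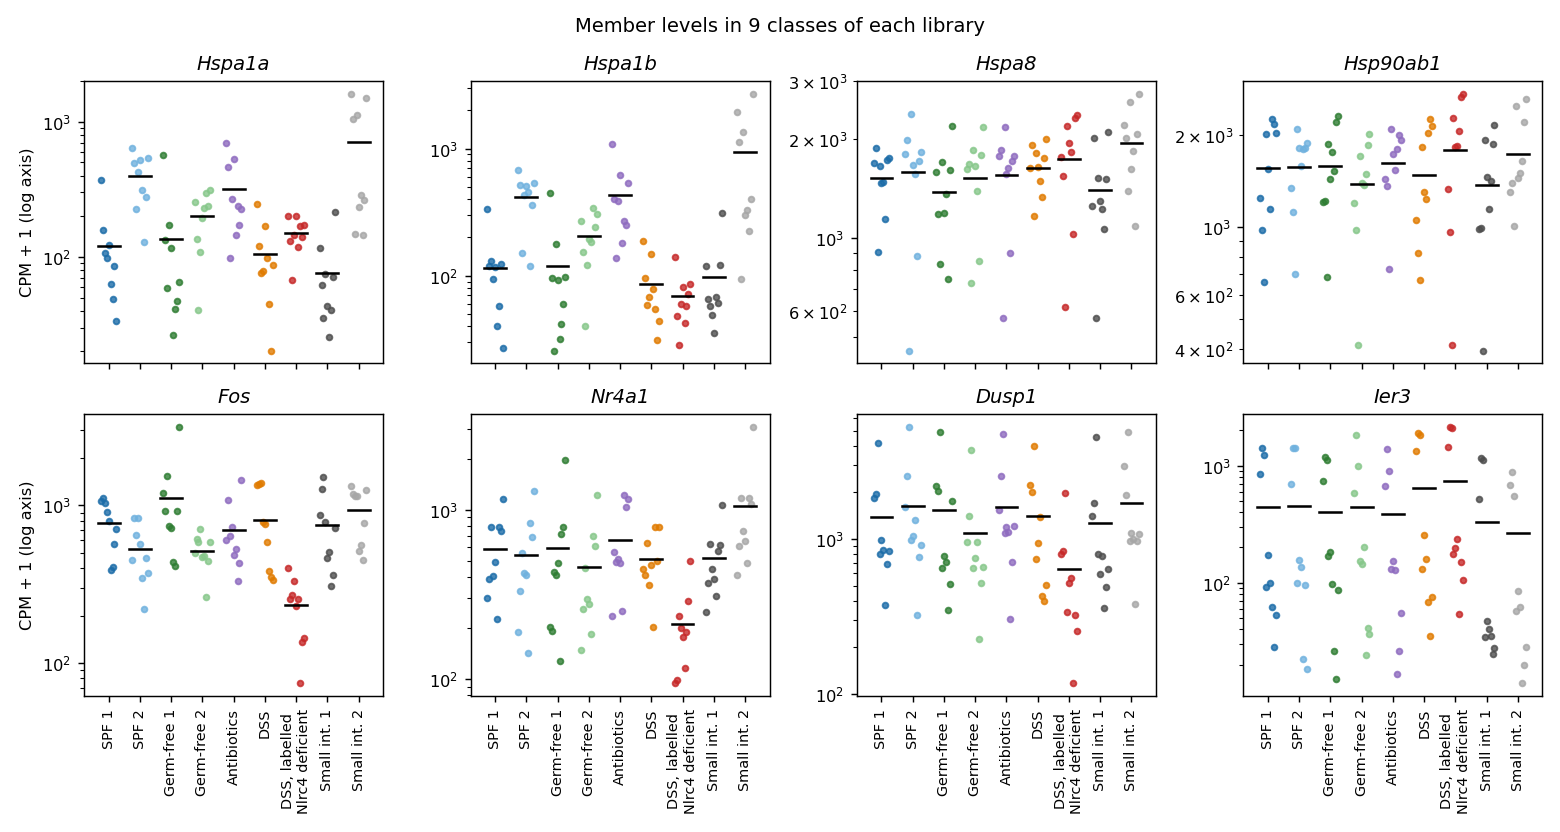
CPM + 1, on a log axis, of 8 members in each of the 9 libraries, with 1 point for each of the 9 classes present in all libraries and a bar at their mean. Hspa1a and Hspa1b swing between libraries, from class means of 74.7 and 97.6 CPM in small intestine library 1 to 707 and 936 CPM in library 2, while Fos drops in the library labelled Nlrc4 deficient.

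The inducible HSP70 genes differed widely between libraries of the same group. Hspa1a over all kept cells was 121 and 414 CPM in the 2 SPF libraries, 98.3 and 248 CPM in the GF libraries, and 31.2 and 494 CPM in the small intestine libraries. Library 2 was thus 3.41-fold, 2.52-fold and 15.8-fold above library 1, and it was the higher one in 9 of 9, 6 of 9 and 9 of 9 classes. Hspa1b gave ratios of 3.59, 2.62 and 19 in the same pairs. In the GF pair Dusp2 differed by more, at 2.91-fold.

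With the 9 classes weighted equally, Hspa1a was still 3.29-fold higher in library 2 of SPF and 9.46-fold higher in library 2 of the small intestine, and 1.48-fold in GF. Hsph1 went the same way, with 30.1 and 82.5 CPM in SPF and 16.9 and 73.3 CPM in small intestine. Fos went the other way in the colon, with 853 and 604 CPM in SPF and 1247 and 673 CPM in GF libraries, while it was 403 and 798 CPM in small intestine libraries. The constitutive chaperones Hspa8 and Hsp90ab1 ran from 654 CPM and 891 CPM in small intestine library 1 to 1624 CPM and 1666 CPM, and Dnajb1 ran from 51.8 to 111 CPM. Jun was 883 CPM and Atf3 784 CPM over all kept cells of GF library 1, the highest of the 9 libraries, where 20.8% of kept cells were epithelial-like. With the classes weighted equally, small intestine library 2 was highest for Jun (570.4 CPM, against 388 CPM in GF library 1) and for Atf3 (452 CPM, against 345 CPM).

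Klf2 ran from 111 CPM in the library labelled Nlrc4 deficient to 416 CPM in the antibiotics library. Socs3 ran from 23.8 CPM in small intestine library 1 to 253 CPM in the library labelled Nlrc4 deficient, which was thus low in some immediate-early members and high in others. Pairs of the same group were at least 2-fold apart in 3 of 31 members in SPF (8.88% of all genes above 50 CPM), 5 of 30 in GF (18.8%) and 15 of 30 in small intestine libraries (25%).

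Against this spread, no member differed between GF and SPF colon by edgeR's quasi-likelihood test adjusted over all genes. In all kept cells 0 of 32 members and 0% of 14817 genes passed. Log2 differences ran from -0.75 to 1.01, no member had an unadjusted p under 0.05, and DESeq2 also called 0. Within classes 0 of 32 members passed in macrophage-like (0% of 8690 genes), monocyte-like (0% of 5276) and cDC2-like cells (0% of 9944), and 0 of the 17 members tested in the eosinophil gate (0.582% of 859 genes). At an unadjusted p under 0.05 there were 0, 1, 1 and 1 members in these 4 classes: Egr1 in monocyte-like cells (0.93), Egr2 in cDC2-like cells (-1.03) and Klf2 in the eosinophil gate (-1.0). All genes at that level numbered 419 in all kept cells, and 253, 228, 303 and 37 in the 4 classes.

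The small intestine gave the same counts against SPF colon. No member passed in all kept cells (0% of 14817 genes), macrophage-like (0% of 8690), monocyte-like (0% of 5276) or cDC2-like cells (0.0101% of 9944), by edgeR or by DESeq2, which called 1.80% of all genes lower in all kept cells. Ier3 was 383 and 294 CPM in SPF colon and 51.3 and 148 CPM in small intestine over all kept cells, without overlap. Its log2 difference was -1.48 ± 0.42 and did not pass (edgeR adjusted p = 0.55). At an unadjusted p under 0.05, there were 2 members in all kept cells (Ier3 and Jund), 4 in macrophage-like cells, all with positive differences (Atf3, Btg2, Klf2 and Zfp36), 2 in monocyte-like cells (Egr1 and Jun) and 5 in cDC2-like cells, all with negative differences (Dnajb1, Dusp2, Hsp90aa1, Ier3 and Nfkbia). All genes at that level numbered 1001 of 14817, 610 of 8690, 276 of 5276 and 996 of 9944 in the same order. Without the filter on low counts, edgeR called 1 member in macrophage-like and 2 in cDC2-like cells. With the replicate number as a block, edgeR also called 2 in cDC2-like cells. The differences between macrophage-like and monocyte-like cells in these effects were tested as an interaction, with 0 members called for GF (0.0224% of 8948 genes) and 0 for small intestine (0.0671%), at 0 and 3 members with an unadjusted p under 0.05.

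Among the comparisons between groups, recovery was simulated for GF only. In simulated counts with the spread of these libraries, the GF comparison in all kept cells (14817 genes) recovered 0% of 4-fold changes. That in macrophage-like cells (8690 genes) recovered 85% of 4-fold and 9% of 2-fold changes. The changed genes were above 50 CPM on average. The small intestine comparisons were not simulated.

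DSS, with 1 library and no test, was placed beside the 2 SPF libraries, where a member is counted if it lay at least 2-fold from their mean and outside both. In all kept cells 1 member was higher, Ier3 with 757 CPM against 383 and 294 CPM, where 1.61% of all genes were higher, and 2 were lower, where 0.786% of all genes were lower. The lower ones were Hspa1a with 92.5 CPM against 121 and 414 CPM and Hspa1b with 83.8 CPM against 119 and 427 CPM. The same pair was lower in macrophage-like (1.98% of all genes lower), monocyte-like (1.28%), neutrophil-like (2.37%) and T cell-like cells (2.06%). These classes come from the same libraries and are not separate evidence. The SPF libraries were themselves 3.41-fold apart in Hspa1a and 3.59-fold in Hspa1b, and untreated GF library 1 had 98.3 CPM of Hspa1a. An effect of DSS on this pair was not tested. The antibiotics library had 0 members higher and 0 lower than SPF in all kept cells, where 0.848% and 0.371% of all genes were. Its Hspa1a (360.1 CPM) and Hspa1b (440.5 CPM) lay beside 414 and 427 CPM in SPF library 2.

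The 2 DSS libraries differed in a block of immediate-early members. In the library labelled Nlrc4 deficient, 9 members were at least 2-fold lower than in wild-type DSS over all kept cells, where 6.13% of all genes were lower and the median of all genes lay at -0.19. These were Fos, Fosb, Jun, Junb, Egr1, Nr4a1, Ier2, Dusp1 and Zfp36. Fos stood at 303 CPM against 1035 CPM, Egr1 at 195 CPM against 509 CPM, and Dusp1 at 629 CPM against 1354 CPM.

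Some immediate-early members stood higher in the library labelled Nlrc4 deficient. Ier3 stood at 1047 CPM against 757 CPM, Nfkbia at 1921 CPM against 1657 CPM and Socs3 at 253 CPM against 163 CPM. Hspa1a was the 1 member at least 2-fold higher, with 209 CPM against 92.5 CPM, where 1.85% of all genes were higher. Over all kept cells Hspa8 (1578 and 1446 CPM) and Hspa1b (90.9 and 83.8 CPM) were close in both libraries.

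**Figure D4:**
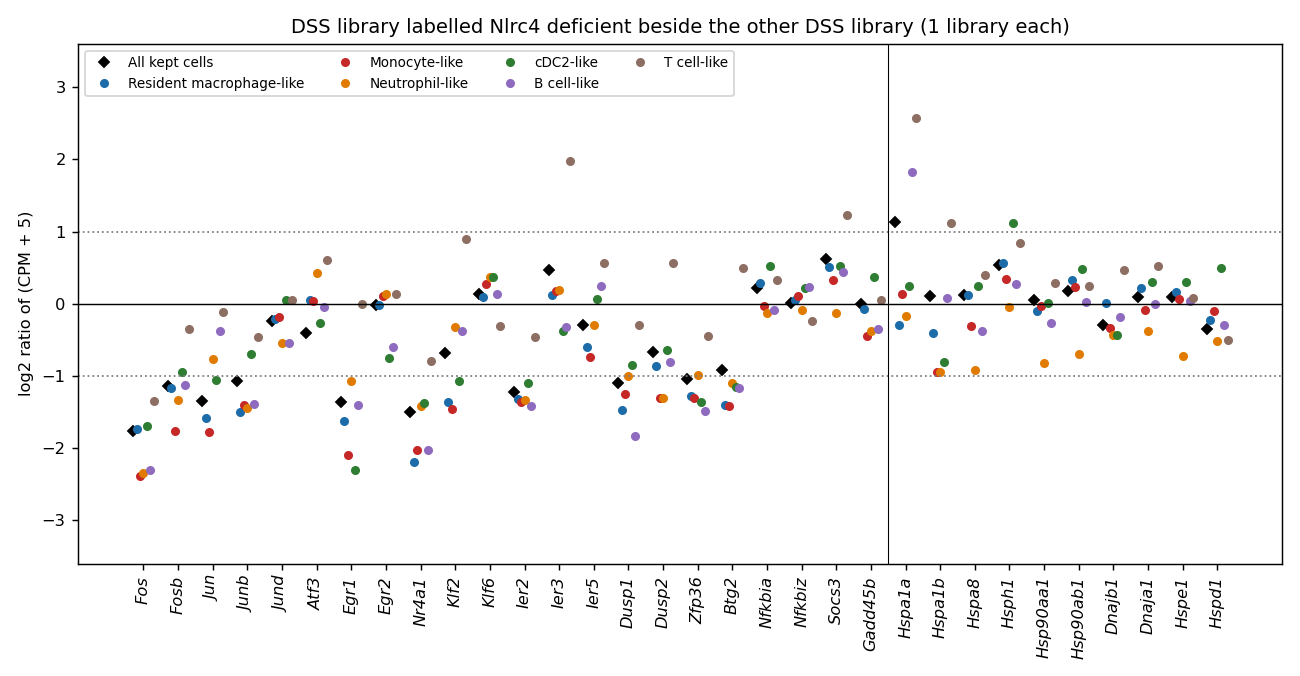
Log2 ratio of each member's CPM + 5 in the library labelled Nlrc4 deficient over the wild-type DSS library, in all kept cells and in 6 classes, with dotted lines at 1 and -1. Fos, Egr1 and Nr4a1 fall beyond the lower line in all kept cells, macrophage-like and monocyte-like cells, and T cell-like points stay mostly between the lines.

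Within classes the count of lower members varied. Counted in the same way, they numbered 11 in macrophage-like cells (10.1% of all genes lower), 12 in monocyte-like (6.13%), 8 in neutrophil-like (20%), 8 in cDC2-like (5.39%), 9 in B cell-like (3.64%) and 1 in T cell-like cells (6.03%), of 32 members in each. In T cell-like cells the share of members that were lower lay below that of all genes. Members at least 2-fold higher numbered 4 there (Hspa1a, Hspa1b, Ier3 and Socs3), where 2.85% of all genes were higher. They numbered 1 in cDC2-like cells (Hsph1, 2.83% of all genes), 1 in B cell-like cells (Hspa1a, 2.19%) and 0 in the other 3 classes. In neutrophil-like cells the median of all genes itself lay at -0.52. Fos in monocyte-like cells stood at 255 CPM in this library against 1357 CPM in wild-type DSS and 612 to 1278 CPM in the other 7 libraries. With all 9 libraries in view, Fos, Fosb, Nr4a1 and Dusp1 had their lowest value in this library in 9 of 9 classes, as did 38 of 3042 genes (1.25%). Zfp36 and Junb had it in 8 of 9 classes, where 3.06% of genes were lowest in at least 8.

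This library also differed from wild-type DSS in depth and makeup. It had 6698 kept cells against 4162, and a median of 8358 UMIs per kept cell against 4323. The highest median of all libraries was that of small intestine library 1 (12322.5 UMIs). Of kept cells, 30.8% were monocyte-like against 19.2% in wild-type DSS, and 6.99% neutrophil-like against 16.0%. Fibroblast-like cells made up 5.79% (388 cells) against 1.08% (45 cells), and 5.18% in the antibiotics library. The part of these differences in the result was not tested. With 1 library, the genotype and the preparation cannot be told apart.

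At the other end, small intestine library 2 had the highest value of all 9 libraries in at least 7 of 9 classes for Atf3, Jun, Junb and Nr4a1, as did 14 of 3042 genes (0.460%). Junb in macrophage-like cells was 7391 CPM there, against 1553 to 4401 CPM in the other 8 libraries. Hspa1a in the same cells was 1607 CPM, against 114 to 700 CPM elsewhere.

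The variance of each member's log2(CPM + 5) over 81 library-class columns was split into a part between classes, a part between libraries and a rest. Over 3042 genes the median was 70.3% between classes and 11.3% between libraries, and the ninetieth percentile of the library part was 29.6%. Hspa1b (57.7%), Hspa1a (50.1%), Fos (45.2%), Fosb (35.4%), Nr4a1 (31.1%) and Junb (29.6%) had the largest library parts among the members. At the class end, Nfkbiz had 90.4% between classes and 2.62% between libraries, and Ier3 had 89.8% and 5.80%. The median library part was 13.7% for the immediate-early and 7.64% for the heat shock members, near the median over all genes.

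Which library made the difference depended on the gene. Without the library labelled Nlrc4 deficient, an alternative chosen after seeing the data, the library part fell to 18.0% for Fos, 19.6% for Fosb, 14.3% for Nr4a1 and 14.8% for Junb, where the ninetieth percentile over all genes was 26.0%. Hspa1a and Hspa1b then still had 50.7% and 54.8%, and without small intestine library 2 they had 45.8% and 54.5%.

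**Figure D5:**
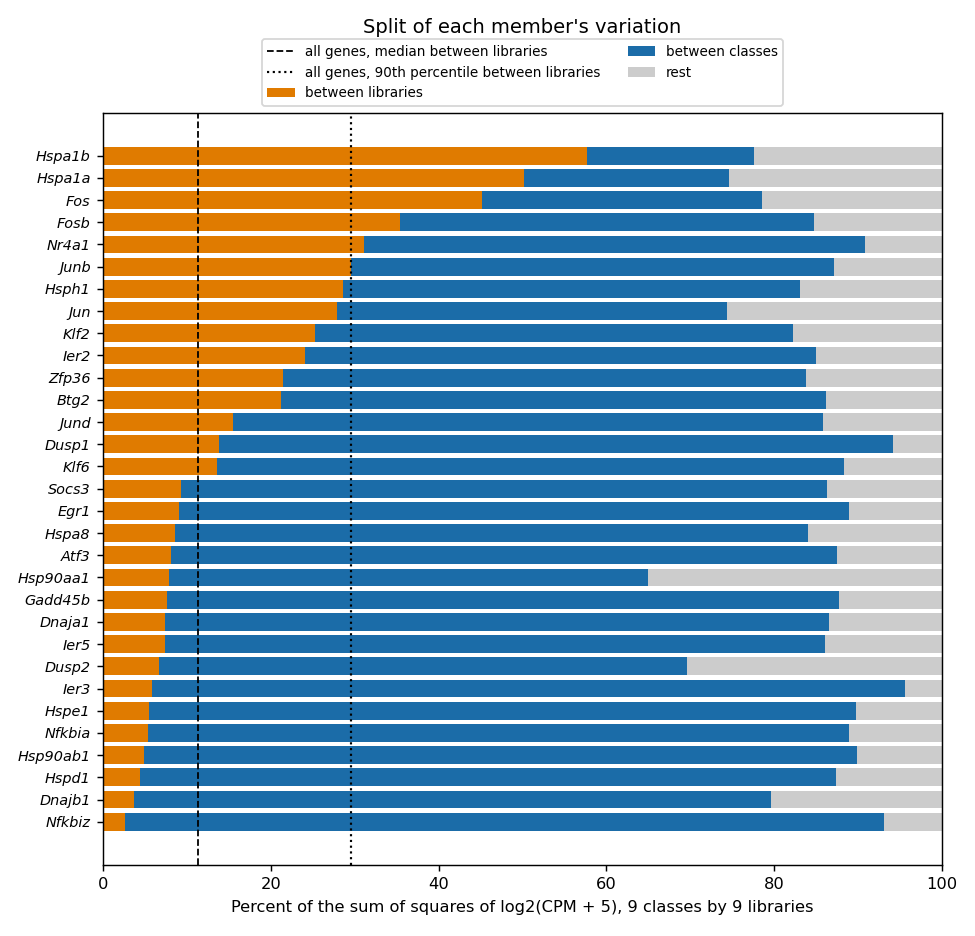
Share of the variance of log2(CPM + 5), in percent, between classes and between libraries for each member, over 9 classes in 9 libraries. Hspa1b and Hspa1a lie farthest toward the library side (57.7% and 50.1%) and Nfkbiz and Ier3 toward the class side (90.4% and 89.8%).

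The correlation between the 2 arms of the module was weaker than within them. Over 111 library-class columns, which share libraries and classes and are not independent, the median correlation of log2(CPM + 5) was 0.28 among 210 pairs of immediate-early members, 0.39 among 45 pairs of heat shock members and 0.12 across the arms. The closest pairs were Nfkbia with Nfkbiz (r = 0.90), Hspa1a with Hspa1b (0.87) and Dusp1 with Zfp36 (0.84). Outside the module, the summed AP-1 and ATF members were most alike to Wsb1 (0.78), Fosl2 (0.77) and Ccnl1 (0.75), followed by Nufip2, Ddx3x, Tob1, Rsrp1, Mafk, Fbxo33 and Dusp6 down to 0.65. The summed HSP70 and HSP110 members were most alike to Dyrk2 (0.64) and Ptger4 (0.64), followed by Rassf1, Mapk1ip1l, Cct8, Efr3a, Ece1, Dpysl2, Ifngr1 and Stip1 down to 0.59. Stip1 is an adaptor between HSP70 and HSP90.

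Over all kept cells the 2 inducible HSP70 genes stood near an even ratio in 8 libraries. Hspa1a made up 43.7% to 52.5% of the summed Hspa1a and Hspa1b UMIs over all kept cells in 8 libraries. In the library labelled Nlrc4 deficient it made up 69.6% (exact 95% binomial interval 69.0% to 70.3%, counting error only), from 13124 and 5719 UMIs, and 58.8% to 74.7% in each of 9 classes. The class values of the other libraries spread widely, from 26.9% in small intestine library 1 to 66.3% in wild-type DSS, and those of wild-type DSS (39.0% to 66.3%) overlapped the range of this library. Since these transcripts share sequence, a difference in expression and a difference in how reads were assigned cannot be told apart from the counts.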

How the data were processed

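Per the labels, CD11b+ lamina propria cells were loaded on a 10x 3′ version 3 kit, and the authors deposited raw UMI counts per gene and cell from Cell Ranger (STAR 2.5.1b, mouse build mm10). Cells with at most 15% mitochondrial UMIs and at least 200 genes were kept. A class needed at least 2 of its 8 markers and a lead of 1 over the next class. Tied cells and cells with too few markers stayed out of the classes, doublets were not called and free RNA was not removed. Counts were summed per library and class (at least 20 cells). The tests were edgeR 4.0.16 quasi-likelihood with TMM factors and Benjamini-Hochberg adjustment at 0.05 (R 4.3.3), with DESeq2 1.42.0 as an alternative. They were tested on simulated data. In the macrophage-like class comparison, 100% of 4-fold and 91% of 2-fold changes were recovered (12049 genes), and 12 of 11849 unchanged genes were called. The changed genes were above 50 CPM on average. All simulated columns had the same profile apart from these genes. The simulation therefore did not test how the scaling acts where many genes differ between classes. Levels are CPM of all UMIs in the cells summed. Named were members past the threshold with the largest differences, 13 members in every library, and, per list, the 2 genes with the largest differences in each direction or fewer. The members and lists were chosen with earlier results of these data known. The lists were not chosen by the study.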

Additional observations from a re-analysis of the deposited data

Results flagged for a closer look

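No group had the 4 libraries that a test for a library far from the others needs, and no member's effect differed between macrophage-like and monocyte-like cells in the interaction test. What remained were signals in cells outside the comparisons. Barcodes left out by the cell filter still carried the module, with an immediate-early share from 0.618% in small intestine library 1 to 1.22% in the antibiotics library and a heat shock share from 0.256% to 0.522% in the same libraries. The 36 mast or basophil-like cells (233923 UMIs) held 1.77% immediate-early and 0.522% heat shock UMIs. The 100 endothelial-like cells (590812 UMIs) held 2.03% and 0.709%.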

How the results depend on the processing

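Of 169 calls of a member in a class comparison, 135 held under every alternative run, and none of the 2662 alternative values of these calls turned direction. The count of 7 members called between macrophage-like and monocyte-like cells became 14 with DESeq2, 2 without the library block, 11 with the stricter cell filter and 11 with the stricter gate. Without the filter on low counts, 1 member was called between small intestine and SPF colon in macrophage-like cells and 2 in cDC2-like cells, where the replicate block also called 2. With immunoglobulin, ribosomal and mitochondrial genes out, the mean immediate-early share over libraries went from 1.38% to 1.95% and the heat shock share from 0.502% to 0.708%. No member is among the genes taken out, so the smaller total raises these shares by itself. The cause of the changes in counts of members called was not tested.

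Leaving out each library in turn, members called ranged from 27 to 30 in neutrophil-like, 20 to 22 in monocyte-like, 23 to 25 in macrophage-like, 15 to 17 in cDC2-like, 25 to 28 in B cell-like, 23 to 24 in T cell-like cells and 21 to 22 in the eosinophil gate, from 6 to 8 between macrophage-like and monocyte-like cells, and from 0 to 0 in the GF and small intestine comparisons and the interactions. The replicate numbers are shared between groups but mark no shared animal or day in the labels. The deviations of same-numbered libraries correlated at r = 0.79, 0.32 and 0.32 across genes in all kept cells. The order is SPF with GF, SPF with small intestine and GF with small intestine. In macrophage-like cells the values were 0.15, 0.05 and -0.07, and in monocyte-like cells 0.48, -0.01 and -0.06. Over the members alone they were 0.74, 0.67 and 0.49 in all kept cells. They were 0.43, 0.54 and -0.16 in macrophage-like cells and 0.39, 0.73 and 0.10 in monocyte-like cells. With 2 numbers per group the libraries were not taken as pairs. The replicate block called 0 members in the other comparisons it was run on. The stricter gate gave no value for the eosinophil gate and for some monocyte-like comparisons.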
